A study of Mus musculus with 5 samples.

Results

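MHC class II presentation genes were followed in ear skin of mice that lack Cd1d and of control mice. The group holds 10 of the 27179 genes in the count table and was chosen by name, as known parts of the class II route, and matched by Entrez identifier: the class II chains H2-Aa, H2-Ab1 and H2-Eb1, the invariant chain Cd74, the peptide exchange factors H2-DMa, H2-DMb1 and H2-DMb2, the transcriptional activator Ciita, and the lysosomal enzymes Ctss and Ifi30. Cd1d is a relative of class I molecules that shows lipids, not peptides, to natural killer T cells. All 10 genes had enough reads to be tested.

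Bulk RNA was sequenced from whole ear skin of B6 mice. Controls (3 libraries) are titled Cd1d +/-, while their genotype tag reads WT, and knockouts (KO, 2 libraries) are titled Cd1d -/- and tagged Cd1d KO. The labels give no age or treatment and do not say whether the libraries are from different mice, so the p-values below measure the spread between these 5 libraries, which may be technical. Levels are given as CPM, read counts scaled to the library total after TMM normalization. In bulk skin, fewer cells of a type and less RNA per cell cannot be told apart.

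Class II molecules carry peptides from endosomes to the cell surface, where CD4 T cells read them. In skin they are borne mainly by Langerhans cells of the epidermis and by dendritic cells and macrophages of the dermis, and other cells can make them after interferon gamma. An alpha and a beta chain assemble with the invariant chain, which blocks the groove and steers the complex to lysosomes. Cathepsin S trims the invariant chain, the thiol reductase encoded by Ifi30 opens disulphide bonds of antigens, and the DM heterodimer exchanges the last invariant chain fragment for peptide. Transcription of nearly all of these genes depends on CIITA, a coactivator that binds no DNA itself but docks on factors seated at the X box (RFX and CREB) and the Y box (NF-Y) of their promoters.

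Class II genes share their control through the X box and Y box. Letters of these boxes were found in the promoters of H2-Aa, H2-Eb1, H2-DMb1, H2-DMb2 and Ctss. The stretches of the 4 genes with Y box letters are shown. A link between the letters and the values below was not tested. The stretches come from RefSeq promoter windows on GRCm38.p6, of 300 bases each, with 250 before and 50 after the annotated start. A window was available for 7 of the 10 genes. The letters AACNGATG (part of the X box) and TGATTGG (the Y box core) were searched on both strands, and do not overlap each other. They are in capitals, 5′ to 3′ on the strand of the gene. The stretches lie at chr17:34287837-34287943 (H2-Aa, minus strand), chr17:34305748-34305842 (H2-Eb1, plus), chr17:34153069-34153164 (H2-DMb1, plus) and chr17:34145098-34145193 (H2-DMb2, plus).
H2-Aa: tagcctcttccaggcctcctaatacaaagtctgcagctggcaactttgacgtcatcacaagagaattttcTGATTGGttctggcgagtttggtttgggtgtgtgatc
H2-Eb1: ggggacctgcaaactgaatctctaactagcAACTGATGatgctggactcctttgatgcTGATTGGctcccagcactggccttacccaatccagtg
H2-DMb1: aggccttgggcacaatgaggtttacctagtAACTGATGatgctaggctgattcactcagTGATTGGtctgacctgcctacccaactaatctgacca
H2-DMb2: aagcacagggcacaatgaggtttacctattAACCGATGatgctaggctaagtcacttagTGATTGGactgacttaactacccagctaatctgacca

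H2-Eb1, H2-DMb1 and H2-DMb2 held both sets of letters in the same order, with 20, 21 and 21 bases between them. Of 32851 promoter windows of this length, 2.32% held the X box letters, 7.82% the Y box letters and 0.186% both. H2-Aa held the Y box letters but not the searched X box letters, which are only part of that box, so an X box is not excluded there. Ctss held the X box letters at 207 bases before its start. Neither set was found in the windows of Ifi30 or H2-DMa, which says only that these letters are not in those windows. The H2-DMb1 and H2-DMb2 windows were alike, with 208 of 247 aligned bases identical.

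**Figure D1:**
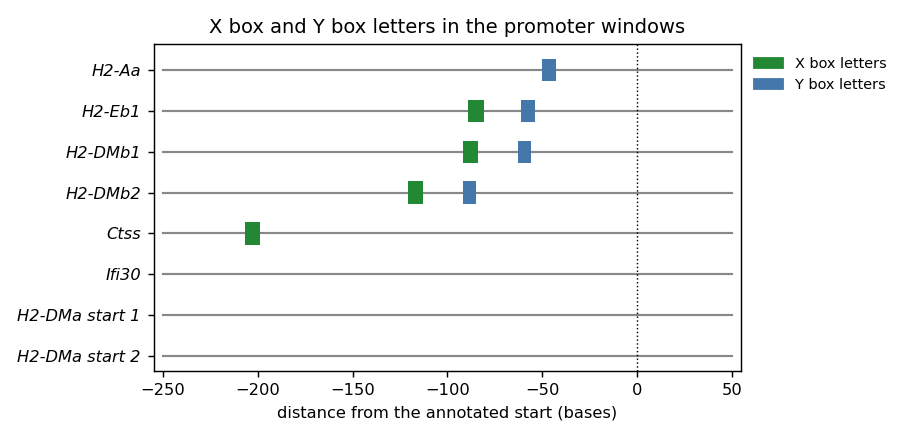
X box and Y box letters for the 7 genes with a promoter window, from 250 bases before to 50 bases after an annotated start. H2-DMa has 2 windows, and neither holds the first base of the gene as annotated (34119693). Each bar is a match, and H2-Eb1, H2-DMb1 and H2-DMb2 show an X box match 20 or 21 bases before a Y box match.

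Total counts ranged from 32353957 to 79160005 per library, and 1 count was worth 0.0119 to 0.0303 CPM. Cd1d1, the deleted gene, had 182 to 757 counts per control library and 48 and 61 per KO library (log2 fold change -2.67, SE 0.29, edgeR adjusted p = 0.0152), so each library went with its label. KO replicate 1 stood apart in Krt71, an inner root sheath keratin gene of the hair follicle, chosen after its values were seen. Krt71 had 9764 counts there and 106 to 226 in the other 4 libraries. Other hair follicle genes are not given here. The 5 keratinocyte genes, which mark the tissue as skin, summed to 33902 to 43429 CPM in the controls and 50453 and 47911 CPM in KO. The largest part of that gap was Lor, with means of 11717 CPM in the controls and 20558 CPM in KO. Its log2 fold change was 0.81 (SE 0.20), while the median of the 5 was 0.15 and the lowest value -0.02. Over all 17472 tested genes, 657 passed an adjusted p of 0.05 (edgeR quasi-likelihood test), 474 higher (2.71%) and 183 lower (1.05%) in KO. Scaling by library size alone shifted the median of all genes to -0.16 and turned that split to 268 higher and 974 lower.

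Of the 10 class II genes, 1 was higher in KO, H2-Ab1, 0 were lower and 9 did not pass. The background shares were 2.71% called higher and 1.05% called lower, and 6 of the 10 had an unadjusted p under 0.05. Both KO libraries lay above every control library for 8 of the 10 genes, against 19.9% of all tested genes, and below every control library for 1, Ciita, against 20.0% of all tested genes. The median log2 fold change of the 10 was 0.31, and that of all tested genes was -0.02. Transcript length bears on this reading and is described after the single genes.

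**Figure D2:**
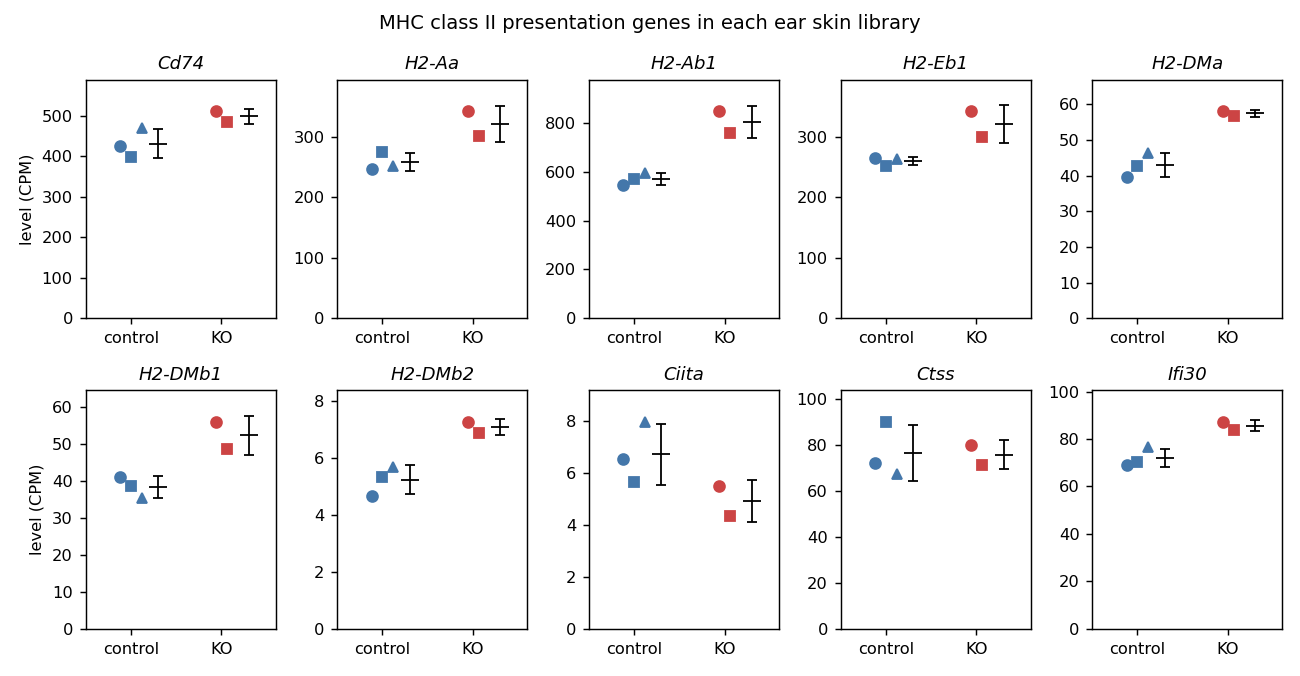
Level in CPM (vertical axes, from 0) of each of the 10 genes in the 3 control libraries (blue) and 2 KO libraries (red), with circles, squares and triangles for replicates 1, 2 and 3. Black bars are means ± SD. The KO points lie above all control points in 8 panels, below them for Ciita and among them for Ctss.

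H2-Ab1 encodes the beta chain of the I-A molecule, the only class II molecule that B6 mice place on the cell surface. Control replicates 1, 2 and 3 had 546, 570 and 595 CPM, and KO replicates 1 and 2 had 850 and 757 CPM. The groups did not overlap, and the lowest KO library stood well above the highest control. The control mean was 570 ± 24.3 CPM (SD, n = 3) and the KO mean 804 ± 65.5 CPM (SD, n = 2), 1.41-fold higher by the fit, with a log2 fold change of 0.49 (SE 0.12, edgeR adjusted p = 0.0447). The call depended on single libraries and on the scaling. It was lost with library size alone (0.35, edgeR adjusted p = 0.0814), without control replicate 1 (0.47, edgeR adjusted p = 0.232), without KO replicate 1 (0.41, adjusted p = 0.436) and without KO replicate 2 (0.58, adjusted p = 0.182).

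H2-Aa encodes the alpha chain that pairs with the H2-Ab1 product. Controls measured 248, 276 and 252 CPM and KO libraries 344 and 301 CPM, so all KO values were higher than all control values. The log2 fold change was 0.32 (SE 0.12), with an edgeR adjusted p of 0.154, which did not pass. Its neighbour H2-Eb1 encodes the beta chain of the I-E molecule. Controls had 265, 252 and 262 CPM, and KO libraries 342 and 299 CPM. These groups also did not overlap, and the log2 fold change of 0.30 (SE 0.12) had an edgeR adjusted p of 0.161. The partner of H2-Eb1, H2-Ea, is annotated as a transcribed pseudogene in this genome and is defective in B6 mice. It had 4 counts in control replicate 2 and 0 in the other 4 libraries, where 0 counts allow at most 0.0356 to 0.0910 CPM (3 counts, counting error only).

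Cd74 encodes the invariant chain. Controls stood at 425, 399 and 470 CPM, and KO libraries at 513 and 485 CPM. The gap between the lowest KO and the highest control library was narrow. The log2 fold change was 0.21 (SE 0.12, 95% interval -0.06 to 0.47), with an edgeR adjusted p of 0.335.

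The DM genes had fold changes close to that of H2-Ab1. H2-DMa, the alpha chain of DM, had control levels of 39.7, 42.8 and 46.3 CPM and KO levels of 58.1 and 56.7 CPM. H2-DMb1, the main DM beta chain gene here, had control levels of 41.2, 38.5 and 35.4 CPM and KO levels of 56.0 and 48.5 CPM. In both genes the KO libraries lay above all controls, with log2 fold changes of 0.42 (SE 0.12, edgeR adjusted p = 0.0755) and 0.45 (SE 0.12, edgeR adjusted p = 0.0747). H2-DMb2, a second beta chain gene, was low, with control levels of 4.68, 5.35 and 5.70 CPM and KO levels of 7.28 and 6.89 CPM. Its groups did not overlap either, with a log2 fold change of 0.44 (SE 0.17, edgeR adjusted p = 0.169).

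The 2 DM beta genes are close copies, so their split of reads is uncertain. Their transcripts had 1185 of 1255 aligned bases identical (94.4%), and 26.8% of the 50-base windows and 13.5% of the 100-base windows of H2-DMb2 also stood in H2-DMb1. H2-DMb2 took 10.2%, 12.2% and 13.9% of the reads of the pair in the controls against 11.50% and 12.4% in KO, so its share in KO lay within the control range. With both genes summed into 1, the log2 fold change was 0.44 (SE 0.12, edgeR adjusted p = 0.0678).

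Ciita, the activator of the class II promoters, was the one gene with both KO libraries below all controls. Controls had 551, 434 and 263 counts (6.53, 5.66 and 7.98 CPM), and KO libraries 281 and 186 counts (5.50 and 4.34 CPM). The gap was narrow, since KO replicate 1 and control replicate 2 were nearly level. The log2 fold change of -0.44 (SE 0.20, 95% interval -0.90 to 0.01) had an edgeR adjusted p of 0.241, which did not pass.

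Neither lysosomal enzyme gene passed the test. Ifi30 had control levels of 69.2, 70.3 and 76.5 CPM and KO levels of 87.4 and 83.9 CPM. Both KO libraries were above all controls, with a log2 fold change of 0.25 (SE 0.11, edgeR adjusted p = 0.230). Ctss, for cathepsin S, had control levels of 72.1, 90.1 and 67.3 CPM and KO levels of 80.1 and 71.2 CPM. Here the KO values fell inside the control range, and the log2 fold change was -0.02 (SE 0.15, 95% interval -0.34 to 0.31, edgeR adjusted p = 0.964). Ctss lies on chromosome 3 at 95526786 to 95556405 (GRCm38), 8.51 Mb from the deleted Cd1d1.

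The 6 genes of the chains and of DM lie on one stretch of chromosome 17. Their order is H2-DMa (34119693 to 34139101), H2-DMb2 (34143229 to 34151553), H2-DMb1 (34153191 to 34160229), H2-Ab1 (34263227 to 34269418), H2-Aa (34282744 to 34287823) and H2-Eb1 (34305867 to 34316674). Among these 6 genes the log2 fold changes ran between 0.30 and 0.49, and each had both KO libraries above all controls. So had 19.9% of all tested genes and 49.0% of those of 900 to 1700 bases, the range that holds these 6. Whether other genes of the stretch share this was not tested. Cd74 (chromosome 18), Ciita (chromosome 16) and Ifi30 (chromosome 8) lie elsewhere. Annotated genes overlap H2-DMa (Brd2), Ciita (Dexi and 1 other), Cd74 (Mir5107), Ctss (Hmgb1-ps5) and Ifi30 (6330537M06Rik). No source used here says whether reads were counted by strand, so reads in those overlaps could belong to either gene.

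Per kilobase of transcript, on the scale of CPM per kb, the control levels spanned from 471 ± 20.01 for H2-Ab1 to 1.12 ± 0.195 for Ciita (SD, n = 3). Between them came Cd74 (306 ± 25.4), H2-Aa (229 ± 13.2), H2-Eb1 (156 ± 4.26), Ifi30 (73.4 ± 4.03), Ctss (56.4 ± 8.88), H2-DMb1 (27.3 ± 2.06), H2-DMa (25.9 ± 2.01) and H2-DMb2 (3.68 ± 0.363). Only H2-DMb1 and H2-DMa, partners in the DM heterodimer, had overlapping control ranges. The structural chains were thus the most abundant of these transcripts and the activator the least.

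Ratios inside a library do not depend on the scaling of libraries. H2-Ab1 exceeded its partner H2-Aa per kb by 2.05, 1.92 and 2.19 times in the controls and 2.30 and 2.34 times in KO. H2-Ab1 against Cd74 gave 1.495, 1.66 and 1.47 in the controls and 1.93 and 1.82 in KO. Both ratios were higher in each KO library than in each control library, so H2-Ab1 had the larger difference of each pair. The ratio of H2-Eb1 to H2-Aa (0.617 to 0.723 in controls, 0.671 and 0.674 in KO) and that of H2-DMa to the 2 DM beta genes (0.734 to 0.957 in controls, 0.779 and 0.868 in KO) lay within the control range.

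The widest gap in a ratio was between the class II chains and their activator. H2-Ab1 per kb was 414, 499 and 370 times Ciita in the controls and 766 and 865 times in KO, and Cd74 was 277, 301 and 251 times Ciita in the controls and 397 and 476 times in KO. No KO value overlapped a control value in either ratio. These genes differ in transcript length (H2-Ab1 1212, Cd74 1410 and Ciita 6007 bases), and length bears on both ratios, as described below. The part of length in these ratios was not tested. In 2-sided exact permutation tests over the libraries, p was 0.1 for both ratios to Ciita and for H2-Ab1 to Cd74, the smallest that 3 libraries against 2 can give, and 0.233 after Benjamini-Hochberg adjustment over the 7 ratios tested. For H2-Ab1 to H2-Aa the exact p was 0.2.

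H2-Ab1 made up 31.8% to 32.7% of the reads of all 10 genes in the controls and 36.3% and 35.8% in KO. The 10 genes together held 0.182% to 0.185% of a control library and 0.219% and 0.20% of a KO library.

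Transcript length moved with these differences. In this series short transcripts had higher and long transcripts lower values in KO, with a Spearman's rho of -0.57 between length and log2 fold change across 15809 tested genes, which are not independent replicates. Of the 10 class II genes, 9 have transcripts of 981 to 1669 bases, and Ciita has 6007. Among all 2496 tested genes of 900 to 1700 bases the median log2 fold change was 0.26, 49.0% had both KO libraries above every control, and 6.65% were called higher. Among the 1799 genes of 5000 to 7000 bases the median was -0.22, and 44.4% had both KO libraries below every control. The middle 50% of those short genes spanned 0.08 to 0.43, which took in Cd74, H2-Aa, H2-Eb1, H2-DMa and Ifi30. H2-Ab1 (0.49), H2-DMb1 (0.45) and H2-DMb2 (0.44) lay just above it and Ctss below it. Ciita (-0.44) lay below the middle 50% of the long genes, -0.38 to -0.09.

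**Figure D3:**
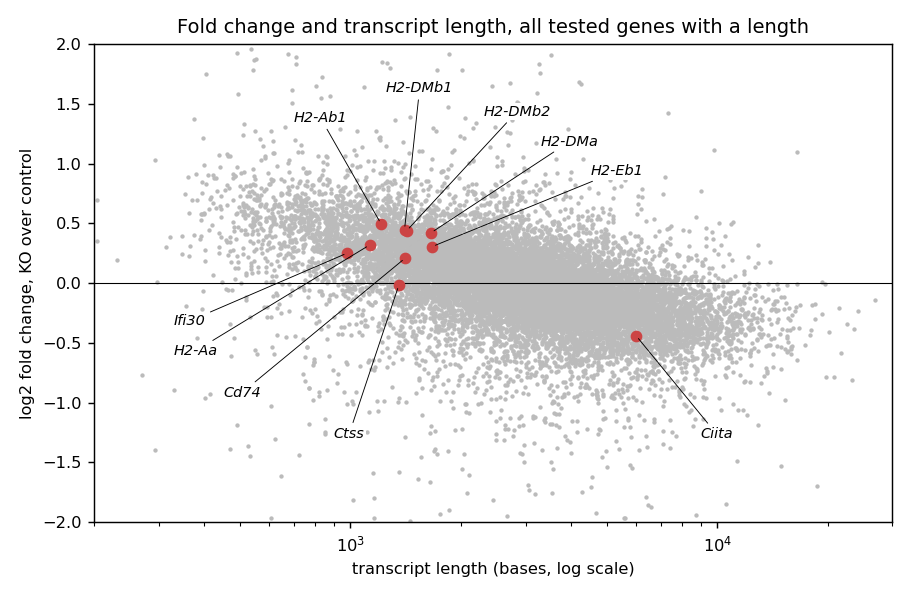
Log2 fold change (KO over control, edgeR) against transcript length on a log axis, for 15672 tested genes (grey, 137 more lie outside the axes) and the 10 class II genes (red). The cloud slopes down from short to long transcripts, and the 9 short class II genes lie in its upper left part and Ciita in its lower right part.

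With offsets that remove each library's trend on transcript length and GC content, 0 of the 10 genes passed (edgeR, 2 with an unadjusted p under 0.05, H2-DMa and Ctss). H2-Ab1 had a log2 fold change of 0.14 (SE 0.09, edgeR adjusted p = 0.466) in that fit. H2-DMa (0.19), H2-DMb1 (0.18), H2-DMb2 (0.18) and H2-Eb1 (0.13) kept positive values, H2-Aa was near 0 (0.02), and Cd74 (-0.08) and Ifi30 (-0.13) turned negative. Ciita had -0.29 (SE 0.17) and Ctss -0.18 (SE 0.08). The median of the 10 genes was 0.08, against 0.31 without offsets. The share of the differences that length accounts for was not tested.

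**Figure D4:**
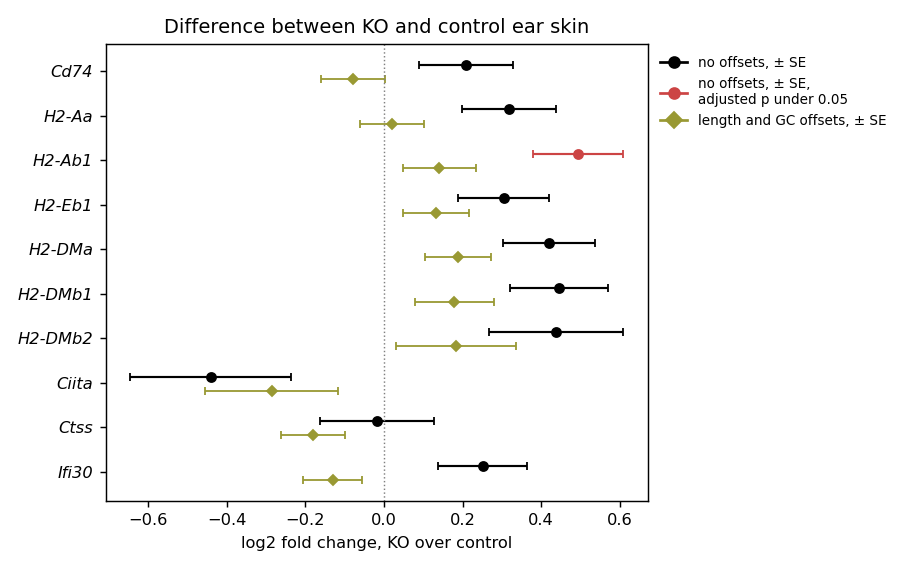
Log2 fold change of each of the 10 genes (KO over control) with its standard error, without offsets (circles, red where the adjusted p was under 0.05) and with length and GC offsets (diamonds). With offsets every value except that of Ciita lies to the left of its circle or changes sign, and H2-Ab1 moves from 0.49 to 0.14.

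Other genes of the pathway were read from 6 lists with 41 genes, of which 39 could be tested. None passed (edgeR, 7 with an unadjusted p under 0.05), while DESeq2 called 2, limma voom 13 and the fit with length and GC offsets 2. Among 9 genes of lysosomal proteolysis and its control, 5 had both KO libraries above all controls, against 19.9% of all tested genes. That share was 49.0% among genes of 900 to 1700 bases, and the transcripts of these 9 ran from 860 to 5616 bases. The 2 with the smallest p were Cst3, for the cathepsin inhibitor cystatin C, at 0.45 (SE 0.11, edgeR adjusted p = 0.0574), and Ctsd, for cathepsin D, at 0.46 (SE 0.13, edgeR adjusted p = 0.0717). The list median was 0.19.

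None of the 9 transcription genes, which include the RFX and NF-Y subunits, Creb1 and the genes of other regulators, passed the test (edgeR, 2 with an unadjusted p under 0.05). Their median was -0.15, and 2 of the 9 had a log2 fold change above 0. Rfx5, for a DNA-binding subunit of RFX, stood at -0.42 (SE 0.16, edgeR adjusted p = 0.171) and Creb1 at -0.42 (SE 0.17, edgeR adjusted p = 0.184). In the interferon gamma list the median was -0.02, with Ifngr2, a receptor chain, at 0.33 (SE 0.11, edgeR adjusted p = 0.117) and the kinase gene Jak2 at -0.37 (SE 0.13, edgeR adjusted p = 0.129). Ifng itself had 0 counts in all 5 libraries, which allows at most 0.0356 to 0.0910 CPM.

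The remaining class II genes were rare. H2-Oa and H2-Ob, the chains of the DM inhibitor DO, and H2-Eb2 together with H2-Ea summed to 1.10 to 1.86 CPM in the controls and 2.02 and 1.96 CPM in KO. H2-Eb2 stood at 0.91 (SE 0.57) and H2-Oa at 0.75 (SE 0.57) on the log2 scale, neither past the test. Costimulation and turnover genes had a median of 0.13, with Cd83 at 0.47 (SE 0.22) and Cd40 at 0.36 (SE 0.19). The class I genes, which present peptides to CD8 T cells, had a median of 0.13, and H2-K1 (0.20, SE 0.11) and H2-D1 (0.24, SE 0.13) did not pass. The test of a difference between class I and class II genes was not run.

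None of the markers of Langerhans cells, dendritic cells or macrophages, which carry class II, passed the test (edgeR). All 3 Langerhans cell genes had both KO libraries above all controls, against 19.9% of all tested genes and 49.0% of those of 900 to 1700 bases. Their transcripts have 1522 to 2125 bases. The 3 genes summed to 387 to 443 CPM in the controls and 488 and 473 CPM in KO. Most of that sum was Mfge8 and Epcam, which other skin cells also express, while Cd207, for langerin, had 22.0 ± 1.98 CPM (SD, n = 3) and 25.9 ± 1.72 CPM (SD, n = 2), a difference that did not pass (0.24, SE 0.13). The 12 macrophage and monocyte genes summed to 674 to 767 CPM in the controls and 911 and 772 CPM in KO. The smallest p of that list were those of C1qa (0.51, SE 0.14, edgeR adjusted p = 0.0714) and C1qc (0.40, SE 0.13, edgeR adjusted p = 0.0990), and 0 of 12 passed. The list was split, with both KO libraries above all controls for 2 of the 12 genes and below all controls for 2. The shares of all tested genes were 19.9% and 20.0%. The 10 dendritic cell genes summed to 105 to 112 CPM in the controls and 116 and 105 CPM in KO, with Irf8 at -0.38 (SE 0.16) and Batf3 at 0.52 (SE 0.22). B cell genes were near the limit of detection, at 1.21 to 1.81 CPM in the controls and 2.06 and 2.57 CPM in KO for 6 genes, and Pax5 had 1 count over all 5 libraries. Cd79a (1.39, SE 0.55) and Cd79b (0.43, SE 0.39) had the smallest p of that list.

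T cell genes summed to 32.3 to 36.6 CPM in the controls and 47.7 and 36.0 CPM in KO, and the 3 general leukocyte genes to 143 to 159 CPM in the controls and 197 and 173 CPM in KO. For T cells, Cd3d had 0.54 (SE 0.19) and Trac -2.05 (SE 0.55, edgeR adjusted p = 0.0661), neither past the test. Trac was low, with 34, 49 and 14 counts in the controls and 6 and 5 in KO. Among the 3 leukocyte genes Coro1a had 0.43 (SE 0.12) and Laptm5 0.33 (SE 0.14), while Ptprc went the other way at -0.20 (SE 0.20). Muscle genes, which mark the muscle of the ear, summed to 2471 to 2726 CPM in the controls and 3148 and 3664 CPM in KO, and 1 of 4 passed, Mylpf at 0.60 (SE 0.13, edgeR adjusted p = 0.0329). Of 46 tested marker genes in 8 lists, edgeR called this 1, while DESeq2 called 7, limma voom 19 and the fit with length and GC offsets 1, and 15 had an unadjusted p under 0.05 (edgeR). Among the keratinocyte genes the smallest p were those of Lor, for the cornified envelope protein loricrin, at 0.81 (SE 0.20, edgeR adjusted p = 0.0506) and Krt14 at 0.17 (SE 0.13). Lor was above all controls in both KO libraries, and 1 of the 5 keratinocyte genes passed in 9 of 16 alternative fits. The part of any of these cells in the class II values was not tested.

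Genes outside the group with the pattern most like it were sought among 10317 genes with a mean of at least 10 CPM. The 5 with the smallest root mean square difference over the 5 libraries from the mean centred log2 profile of Cd74, H2-Aa, H2-Ab1 and H2-Eb1 were H2-Ke6, Cndp2, Mgp, Poldip2 and Gadd45b, with differences of 0.019 to 0.024. That profile stood at -0.16, -0.15 and -0.09 in control replicates 1, 2 and 3 and at 0.28 and 0.12 in KO replicates 1 and 2. KO replicate 1 was thus the higher of the KO libraries. H2-Eb1 lay closest to the profile among the 4 (0.037) and Cd74 farthest (0.085), while Ciita (0.39) and Ctss (0.23) were farthest of all 10 genes. The 4 are themselves part of the profile. Even so, 12 of the 10317 genes lay nearer to it than H2-Eb1, and 449 lay nearer than Cd74.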

How the data were processed

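The authors deposited whole-number read counts per Entrez gene identifier, not normalized, for 5 ear skin libraries. Per the submitters' processing notes, the tools included FastQC, HISAT2 2.0.4 and DESeq2 1.16.1, with the build GRCm38 (mm10). No source used here gives the counting program, its strand setting or its treatment of shared reads.

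Symbols and positions came from RefSeq on GRCm38.p6 (25275 identifiers matched). Lengths are of the longest GENCODE transcript linked to a curated RefSeq RNA, or else the longest, and covered 90.5% of tested genes. Genes were filtered with filterByExpr and TMM-scaled, and KO was tested against control over all 17472 genes with edgeR 4.0.16 (quasi-likelihood, robust, R 4.3.3), Benjamini-Hochberg threshold 0.05. Standard errors were derived from the F statistic. Offsets used mgcv 1.9.3. Alternatives included DESeq2 1.42.0 and limma 3.58.1. The fit was tested on simulated data. Libraries of a group differed beyond sampling noise (chi-square per degree of freedom 23.3 to 79.4, genes with at least 10 counts).

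The members, lists and tests were chosen with earlier results of these data known. Genes of the pathway lists and cell markers were named only where they passed or had one of the 2 smallest p of a list. H2-Ea, H2-Ob and Ifng are given besides for their low counts, Cd207 and Pax5 as defining markers, and Krt71, Epcam and Ptprc after their values were seen.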

Additional observations from a re-analysis of the deposited data

How the results depend on the processing

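The count of class II genes called was 1, and 1 too with DESeq2 size factors, upper-quartile scaling, no count filter, a minimum of 1 CPM in 2 libraries and robust estimation off. It was 0 with library size alone and under either set of offsets (length with GC, or length), 3 with DESeq2 and 7 with limma voom, all of them higher in KO. Leaving out a replicate gave 0 to 3 genes, with 0 without control replicate 1 and without either KO replicate. With the replicate block the count was 2, H2-Ab1 and H2-DMa, and 2037 genes passed in all. Deviations of same-numbered libraries from their group means had r of -0.003 and -0.08. With 2 KO libraries, the deviations of 1 mirror those of the other, so these r are not independent and cannot settle a pairing. The numbers are not read as pairs.

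Over all genes 657 passed, against 1242 with library size alone (268 higher and 974 lower, with the median of all genes at -0.16), 1036 with no filter, 1772 with DESeq2, 4888 with limma voom, 431 with length and GC offsets, 8 with length offsets and 0 to 3277 with a replicate left out (0 without control replicate 1, 2253 at an unadjusted p under 0.05, edgeR). The median log2 fold change of the class II genes was 0.31, against 0.16 with library size alone, 0.076 with length and GC offsets, 0.055 with length offsets, and 0.22 to 0.40 with a replicate left out.

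Signs turned for Cd74 (-0.079 with length and GC, -0.038 with length), Ifi30 (-0.13 and -0.13), H2-Aa (-0.0116 with length) and Ctss (0.044 with limma voom, -0.10 to 0.12 with a replicate left out), none of them called in those fits. The other 6 genes kept their sign in every alternative. The causes were not tested. Where 1 KO library was left, its spread was taken from the controls.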
